A study of Rattus norvegicus with 6 samples.

Results

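Proteasome genes were taken from the deposited FPKM table by name: every row whose symbol was Psm, 1 letter from a to g, and a number. Of 30452 rows, which held 28293 genes once rows of the same symbol were summed, 44 met the rule, and 43 of these were among the 10942 genes tested. The remaining member, Psma8, which encodes a testis alpha subunit, was listed at 0 in all 6 rats. Psma3, Psmb11, Psmd9 and Psmd10 had no row under the rule and were not analysed here.

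The study sequenced total RNA from the myocardium of male wild-type rats, 3 labelled sham and 3 labelled I/R. For I/R, a tie closed the left anterior descending coronary artery over 30 min, and the heart was taken 6 h after its release. The sham rats had a sham operation, although their labels carry the same 30 min and 6 h, and in the study's animal experiment both groups received PBS by tail vein. Strain, age and the piece of myocardium sampled were not given in the sources used here, and bulk tissue cannot tell fewer cells of a type apart from less RNA per cell.

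The proteasome is the main protease for ubiquitin-tagged proteins in the cytosol and nucleus. Its barrel-shaped core has outer rings of alpha subunits (Psma), which gate the entrance, and inner rings of beta subunits (Psmb), of which 3 cut peptide bonds. A regulatory particle caps the barrel: a ring of ATPases (Psmc) unfolds the substrate, and base and lid subunits (Psmd) bind it and remove its ubiquitin. Interferon and immune cells switch the 3 cutting subunits to the immunoproteasome forms Psmb8, Psmb9 and Psmb10, and heart muscle relies on the proteasome for the turnover of damaged and sarcomeric proteins.

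Promoter letters are shown because constitutive and immune cutting subunits, which are contrasted here, are known for different control. Antioxidant-type elements (TGACNNNGC) are known for constitutive genes and interferon-type elements (GAAANNGAA) for immune genes. RefSeq gave a promoter for 40 of the 44 members on build GRCr8 (none for Psma7, Psmd6, Psmd12 and Psmd14), and the 250 bases before each start site were read on both strands. Capitals mark the match, each sequence runs 5′ to 3′ on the strand of its gene, and the Psmb10 capitals are 2 overlapping matches (another began 17 bases before its start site).
Psmb5, chr15:32047401-32047469, minus strand: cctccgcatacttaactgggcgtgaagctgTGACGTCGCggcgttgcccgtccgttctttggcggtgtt
Psmb6, chr10:55737834-55737887, plus strand: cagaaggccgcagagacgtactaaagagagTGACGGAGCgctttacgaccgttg
Psmb2, chr5:144254960-144255028, plus strand: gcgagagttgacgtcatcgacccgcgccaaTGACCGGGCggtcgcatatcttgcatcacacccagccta
Psmb10, chr19:50743327-50743395, minus strand: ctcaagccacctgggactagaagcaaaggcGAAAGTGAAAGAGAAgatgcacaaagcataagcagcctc
Psme2, chr15:33052766-33052834, minus strand: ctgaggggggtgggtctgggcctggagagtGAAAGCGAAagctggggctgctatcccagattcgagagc

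TGACNNNGC occurred before 5 of the 40 genes (12.5%: Psmb2, Psmb5, Psmb6, Psmd1 and Psme4), against 10.1% of 33469 rat promoters. GAAANNGAA occurred before 7 (17.5%: Psma4, Psmb2, Psmb3, Psmb10, Psmd7, Psmd11 and Psme2), against 8.12% of all promoters. The windows of the constitutive cutting subunit Psmb7 and of the immune subunits Psmb8 and Psmb9 held neither, and that of Psmb2 held both. The heat shock type GAANNTTC stood before 3 genes (7.5%: Psmb9, Psmc3 and Psmd1), against 7.23%, and CCAAT before 17 (42.5%), against 34.0%. These counts describe letters in the windows and were not tested.

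In the deposited FPKM, 32 of the 43 genes tested were called higher in I/R, where a call is an adjusted p under 0.05 from limma on log2(FPKM + 0.1). Of all 10942 genes, 25.5% were called higher and 7.36% lower, and limma called no proteasome gene lower (36 had an unadjusted p under 0.05, each with the higher value in I/R). The median log2 fold change of the members was 0.88, against 0.29 for all genes tested, and this direction turned to −1.03 when samples were centred on cardiomyocyte markers. The background was higher among abundant genes: with a filter at a mean of 5 FPKM, 34 of 41 members and 50.0% of all genes were called higher, and the medians were 0.89 and 0.66. In 37 members every I/R value lay above every sham value, as in 37.2% of all genes, and in none did every I/R value lie below, as in 13.0% of all genes. The number called varied with the rat left out: it was 14 without sham 2, 13 without sham 3, 21 without I/R 1 and 21 without I/R 2, and 35 without sham 1. The share of all genes called higher in these fits was 17.5%, 14.0%, 18.9%, 20.7% and 23.4%, in the same order.

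**Figure D1:**
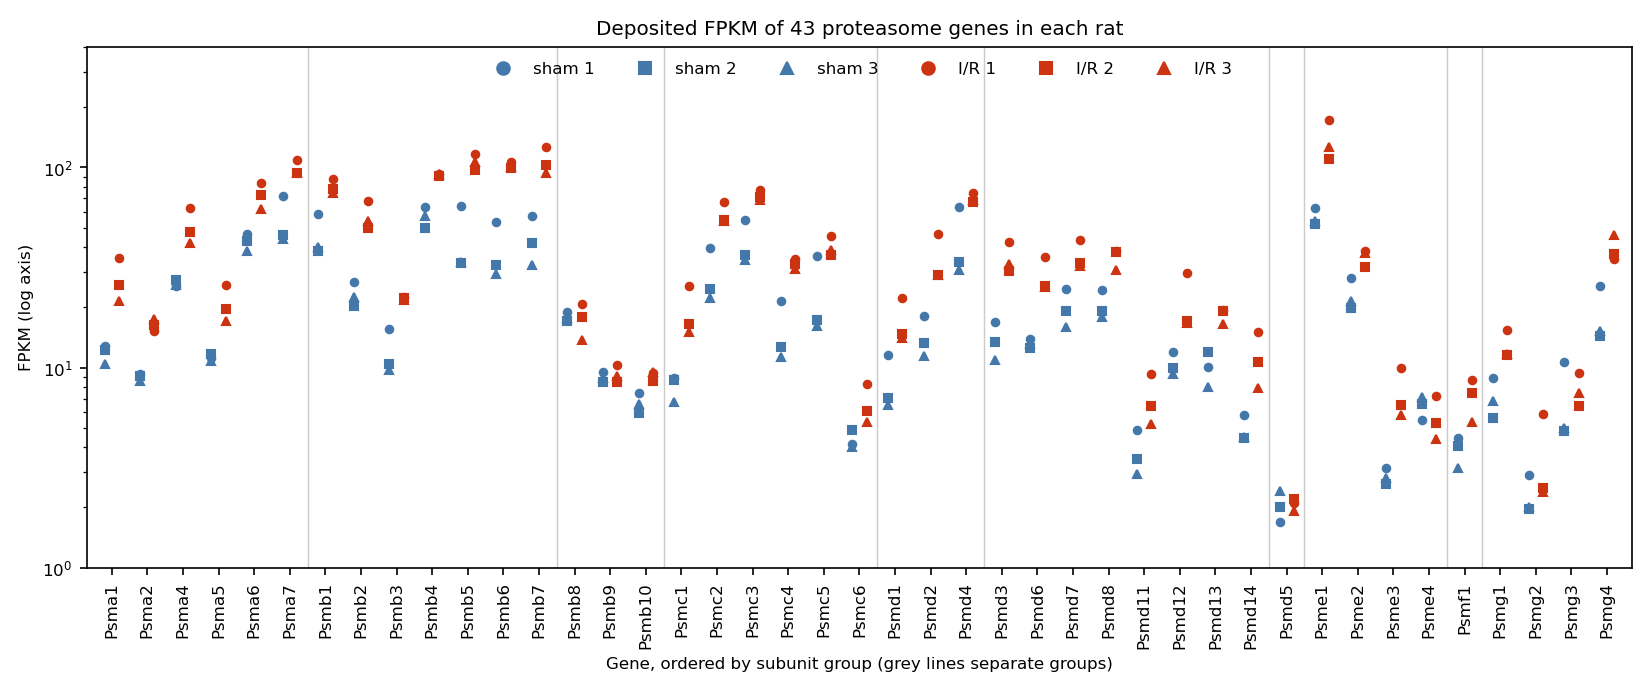
FPKM (log axis) of the 43 tested genes in each of the 3 sham (blue) and 3 I/R (red) rats, ordered by subunit group. The 13 constitutive core genes have every red point above every blue one in these FPKM, as do 37.2% of all genes. Psmb8, Psmb9, Psmd5 and Psme4 overlap, and centring on cardiomyocyte markers turns the direction of the core.

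Each of the 13 constitutive core genes measured rose in the deposited FPKM, by a median log2 fold change of 0.92 that became −0.99 when centred on cardiomyocyte markers. The 6 alpha ring genes rose by 0.77 to 1.19. Psma1, a gate-ring subunit, read 12.9, 12.3 and 10.4 FPKM in sham and 35.2, 25.8 and 21.6 in I/R (log2 fold change 1.19, SE 0.25, adjusted p = 0.0077). The groups did not overlap, and the lowest I/R rat, at 21.6, was well clear of the highest sham rat, at 12.9. Psma6, with the smallest change of the ring, read 46.4, 42.8 and 38.3 in sham and 83.8, 72.6 and 62.2 in I/R (0.77, SE 0.23, adjusted p = 0.028). Psma2 had close replicates, at 8.97 ± 0.344 FPKM in sham and 16.3 ± 1.09 in I/R (SD, n = 3). Psma4, Psma5 and Psma7 changed by 0.92, 0.87 and 0.90.

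The 7 constitutive beta genes all rose in FPKM, with a median of 1.30 and the 3 cutting subunits at the top of the order. Psmb5, which carries the chymotrypsin-like activity, read 63.9, 33.5 and 33.8 FPKM in sham and 116.8, 97.2 and 106.7 in I/R (1.35, SE 0.29, adjusted p = 0.0086). Psmb6, the caspase-like subunit, read 53.2, 32.5 and 29.5 in sham and 106.9, 99.3 and 100.1 in I/R (1.46, SE 0.27, adjusted p = 0.0052), the largest change of any member. Psmb7, the trypsin-like subunit, read 57.2, 41.8 and 32.5 in sham and 126.2, 103.0 and 94.0 in I/R (1.32, SE 0.27, adjusted p = 0.0073). In all 3 genes sham 1 lay well above the other sham rats yet below every I/R rat. Psmb2, a non-catalytic beta subunit, also stood high at 1.30, from 26.7, 20.4 and 22.5 FPKM to 68.1, 49.9 and 54.2. Psmb4, another structural subunit, changed least of the ring, from 63.6, 50.0 and 56.9 to 92.9, 90.4 and 92.3 (0.70, adjusted p = 0.035). Psmb1 and Psmb3 lay between them at 0.83 and 0.92. Of the 13 core calls, 7 were left without sham 2, 5 without sham 3 and 8 without I/R 2. In these fits 17.5%, 14.0% and 20.7% of all genes were called higher, against 25.5% with all rats. The direction of Psma4, Psma6, Psma7, Psmb1 and Psmb4 turned negative under quantile normalization (−0.03, −0.25, −0.12, −0.15 and −0.32).

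FPKM are per transcript length, so levels can be set between genes. The core subunits, which enter the barrel in equal number, did not have equal mRNA levels: sham means ran from 8.97 FPKM (Psma2) to 56.8 (Psmb4), a 6.33-fold range. The constitutive beta genes had the higher median, 43.7 FPKM in sham against 19.1 for the alpha ring, and 91.9 against 39.1 in I/R. This order of the rings was the same in every rat, with beta medians of 57.2, 33.5 and 32.5 in sham against alpha medians of 19.3, 19.8 and 18.4.

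In the deposited FPKM, limma called none of the 3 immunoproteasome genes in either direction (0 with an unadjusted p under 0.05). Psmb8, which replaces Psmb5, read 18.9, 17.1 and 17.8 FPKM in sham and 20.8, 18.0 and 13.8 in I/R (−0.05, SE 0.23, adjusted p = 0.88). Psmb9, which replaces Psmb6, read 9.54, 8.51 and 8.88 in sham and 10.3, 8.47 and 9.13 in I/R (0.05, SE 0.21, adjusted p = 0.88). The sham and I/R ranges of both genes overlapped. Psmb10, which replaces Psmb7, read 7.44, 5.96 and 6.56 in sham and 9.38, 8.56 and 9.47 in I/R, with no overlap but no call (0.46, SE 0.21, adjusted p = 0.12). The median of the 3 genes was 0.05, below the 0.29 of all genes tested. It was −0.20 when samples were centred on the median gene and −0.54 after quantile normalization (1 of 3 called lower). With mitochondrial mRNAs left out of the scaling it was −0.73 (2 called lower), and centred on cardiomyocyte markers −1.86 (3 called lower). The median of all genes under these scalings was 0.04, −0.02, −0.48 and −1.62, in the same order. In the last 3 of these scalings 14.2%, 26.9% and 60.2% of all genes were called lower.

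**Figure D2:**
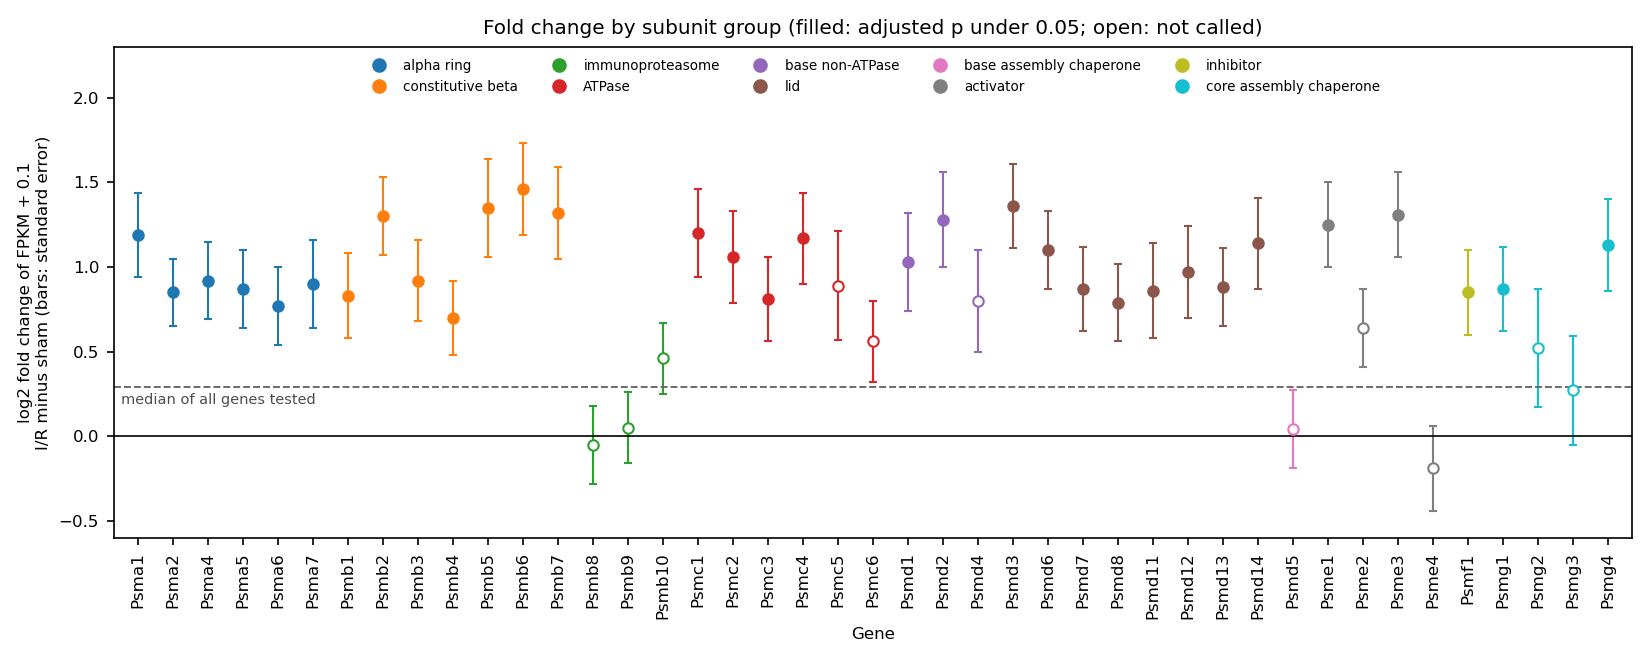
Log2 fold change of FPKM + 0.1 (I/R minus sham) for each tested proteasome gene, coloured by subunit group, with the limma standard error; filled points have an adjusted p under 0.05 and the dashed line is the median of all genes tested, 0.29. Psmb8 (−0.05), Psmb9 (0.05), Psmd5 (0.04) and Psme4 (−0.19) sit near 0 while the core genes sit from 0.70 to 1.46; all core values turn negative if samples are centred on cardiomyocyte markers.

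The ratio of an immune subunit to the constitutive one it replaces is formed within a rat, so a factor applied to a whole library cancels. Psmb8/Psmb5 was 0.296, 0.511 and 0.525 in sham and 0.178, 0.185 and 0.130 in I/R, a mean of 0.444 ± 0.128 against 0.164 ± 0.0303 (SD, n = 3). Psmb9/Psmb6 was 0.179, 0.262 and 0.301 in sham and 0.0964, 0.0854 and 0.0912 in I/R (0.247 ± 0.0622 against 0.0910 ± 0.00550). Psmb10/Psmb7 was 0.130, 0.142 and 0.202 in sham and 0.0743, 0.0831 and 0.101 in I/R (0.158 ± 0.0382 against 0.0861 ± 0.0135). In all 3 pairs every I/R rat lay below every sham rat, so constitutive mRNA exceeded immune mRNA by a wider margin after I/R. The constitutive denominators themselves changed by 1.35, 1.46 and 1.32 in FPKM, against a median of 0.29 for all genes. Relative to the mean of the 13 core genes, limma called 46.1% of all genes lower. A fall against a core gene is therefore not particular to the immune subunits. The log2 ratio differed by −1.40, −1.41 and −0.86 between the groups, and with any 1 rat left out the differences stayed within −1.67 to −1.24, −1.63 to −1.25 and −0.99 to −0.68. An exact two-sided permutation test gave p = 0.1 for each ratio, and 0.1 adjusted over the 3, which is the smallest p that 3 rats against 3 allow.

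**Figure D3:**
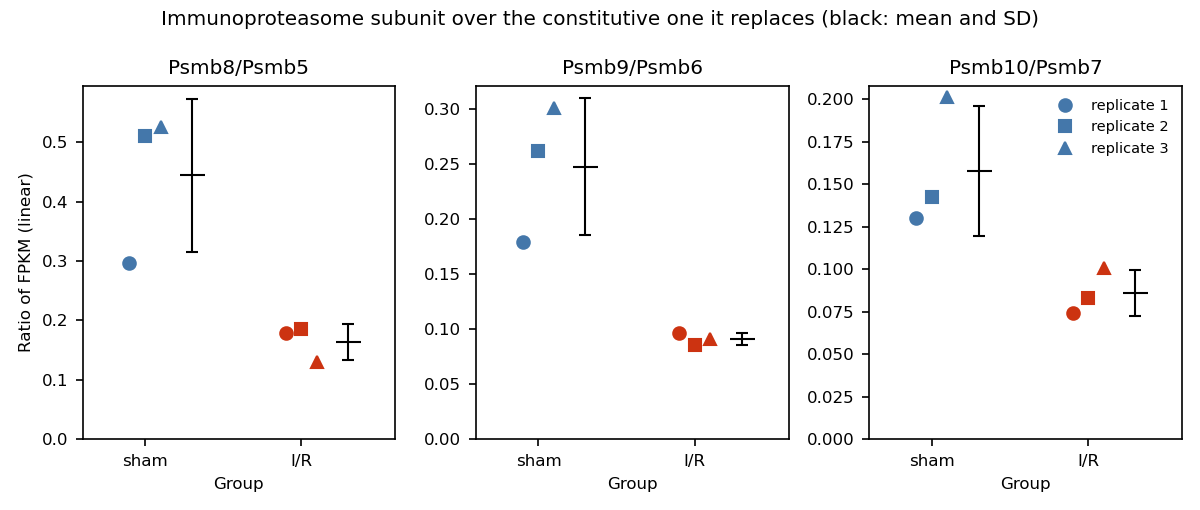
Ratio of the FPKM of each immunoproteasome subunit to that of the constitutive subunit it replaces (linear axis from 0), in each rat, with mean and SD of 3 rats in black. In each panel the 3 I/R rats lie below the 3 sham rats; mean Psmb8/Psmb5 is 0.444 in sham and 0.164 in I/R.

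The ATPase ring had 4 of 6 genes called higher in FPKM, against 25.5% of all genes. Its median was 0.97, which became −0.94 when centred on cardiomyocyte markers. Psmc1 read 8.91, 8.63 and 6.70 FPKM in sham and 25.5, 16.5 and 15.1 in I/R (1.20, SE 0.26, adjusted p = 0.0091). Psmc4, Psmc2 and Psmc3 were called at 1.17, 1.06 and 0.81. Psmc5 read 36.1, 17.3 and 16.2 in sham and 45.5, 36.5 and 38.9 in I/R (0.89, adjusted p = 0.056). Its lowest I/R rat was barely above sham 1, and with the replicate number as a block it was called (adjusted p = 0.015). Psmc6, the ring's least abundant mRNA, read 4.16, 4.89 and 4.03 in sham and 8.26, 6.05 and 5.34 in I/R (0.56, adjusted p = 0.096). All 6 ATPase genes had every I/R rat above every sham rat, as in 37.2% of all genes. The number called was 1 without sham 2 and 2 without sham 3, where 17.5% and 14.0% of all genes were called higher.

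Of the 11 Psmd genes of the base and lid, 10 were called higher, against 25.5% of all genes. Their median was 0.97 in FPKM and −0.94 when centred on cardiomyocyte markers. The lid, which holds the deubiquitinase Psmd14, had 8 of 8 genes called. Psmd3, a scaffold of the lid, changed most, from 16.9, 13.5 and 10.9 FPKM to 42.5, 30.4 and 32.8 (1.36, SE 0.25, adjusted p = 0.0053). Psmd14 went from 5.81, 4.43 and 4.49 to 15.1, 10.6 and 7.94 (1.14, adjusted p = 0.013), and its 3 I/R rats were spread widely. Psmd8 changed least, from 24.5, 19.2 and 17.9 to 38.1, 37.8 and 30.6 (0.79, adjusted p = 0.027). The others were Psmd6 (1.10), Psmd12 (0.97), Psmd13 (0.88), Psmd7 (0.87) and Psmd11 (0.86).

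In the base, Psmd2, a scaffold that docks ubiquitin carriers, read 18.1, 13.3 and 11.4 FPKM in sham and 46.7, 29.1 and 29.2 in I/R (1.28, adjusted p = 0.0089). Psmd1, the companion scaffold, changed by 1.03 (adjusted p = 0.023). Psmd4, a ubiquitin receptor, read 63.8, 33.7 and 30.6 in sham and 74.3, 67.5 and 68.9 in I/R (0.80, adjusted p = 0.065). Sham 1 lay close to the I/R rats for this gene, which was called with the replicate block (adjusted p = 0.024). Of the 10 base and lid calls, 4 were left without sham 2, 4 without sham 3, 6 without I/R 1 and 6 without I/R 2. The share of all genes called higher in these fits was 17.5%, 14.0%, 18.9% and 20.7%, against 25.5% with all rats.

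The activators, which cap the barrel in place of the regulatory particle, did not move as 1 group. Psme1, part of the interferon-inducible activator ring, was the most abundant activator, at 62.7, 52.5 and 54.0 FPKM in sham and 173.4, 110.4 and 126.3 in I/R (1.25, SE 0.25, adjusted p = 0.0066). Its ring partner Psme2 read 28.1, 19.9 and 21.5 in sham and 38.2, 31.9 and 37.3 in I/R (0.64, adjusted p = 0.059), and was called with the replicate block (adjusted p = 0.032). The Psme1/Psme2 ratio was 2.23, 2.64 and 2.51 in sham and 4.53, 3.46 and 3.39 in I/R, with no overlap.

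Psme3, the nuclear activator, was the member of the group with the largest change, from 3.15, 2.64 and 2.81 FPKM to 9.98, 6.47 and 5.81 (1.31, SE 0.25, adjusted p = 0.0060). Psme4, the large activator that binds acetylated histones, read 5.44, 6.54 and 7.15 in sham and 7.24, 5.31 and 4.42 in I/R (−0.19, SE 0.25, adjusted p = 0.58). Thus Psme4 exceeded Psme3 in every sham rat and was below it in every I/R rat, with a Psme4/Psme3 ratio of 1.73, 2.48 and 2.54 in sham and 0.726, 0.820 and 0.761 in I/R. The Psme1/Psme3 ratio overlapped between groups (19.7 ± 0.404 against 18.7 ± 2.61). These activator ratios were not tested. Psmf1, an inhibitor of the core, read 4.45, 4.07 and 3.17 in sham and 8.69, 7.45 and 5.34 in I/R (0.85, adjusted p = 0.029).

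Of the 4 chaperones that assemble the core, 2 were called higher, against 25.5% of all genes. Psmg1 went from 8.83, 5.63 and 6.77 FPKM to 15.4, 11.5 and 11.8 (0.87, adjusted p = 0.024) and Psmg4 from 25.4, 14.3 and 15.3 to 34.8, 36.8 and 46.0 (1.13, adjusted p = 0.013). Psmg2, the partner of Psmg1, read 2.89, 1.97 and 2.01 in sham and 5.88, 2.50 and 2.38 in I/R, where only I/R 1 was high (0.52, adjusted p = 0.27). Psmg3, the partner of Psmg4, read 10.7, 4.81 and 5.0 in sham and 9.42, 6.45 and 7.47 in I/R (0.27, adjusted p = 0.55). Psmg1 and Psmg4 both lost their call without sham 2, without sham 3 and with median centring. Psmd5, a chaperone of the base ATPases, was the least abundant member with a value above 0, at 1.68, 2.02 and 2.43 in sham and 2.11, 2.22 and 1.92 in I/R (0.04, adjusted p = 0.91).

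To compare the other members with the core itself, each rat was centred on its mean log2 level of the 13 core genes, an analysis added after the values were seen. Of the 30 remaining genes, 5 were called lower relative to the core and none higher (6 had an unadjusted p under 0.05). Of all 10942 genes, 46.1% were called lower and 4.81% higher on this scale, so the share of members left behind the core was below that of all genes. The median difference was −0.16 for the 30 members and −0.74 for all genes. All 6 ATPase genes and all 11 base and lid genes were uncalled, within −0.47 to 0.33, which does not show that they moved as the core did.

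The 5 genes that lagged came from 4 groups. Psme4 was at −2.53, −1.90 and −1.71 log2 units from the core mean in sham and at −3.05, −3.27 and −3.48 in I/R (difference −1.22, SE 0.28, adjusted p = 0.0040). Psmb8 was at −0.75, −0.53 and −0.41 in sham and at −1.55, −1.53 and −1.85 in I/R (−1.08, SE 0.23, adjusted p = 0.0030), and Psmb9 differed by −0.98 (adjusted p = 0.0049). The groups did not overlap for these 3 genes, and their adjusted p stayed at or under 0.022, 0.017 and 0.032 with any 1 rat left out. Psmd5 (−0.99, adjusted p = 0.019) and Psmg3 (−0.76, adjusted p = 0.032) were also called, but each reached 0.12 when 1 rat was left out. Psmb10 was not called (−0.57, adjusted p = 0.058). Without sham 3, 3 of the 30 genes were called lower, and the share of all genes in that fit is not given here.

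**Figure D4:**
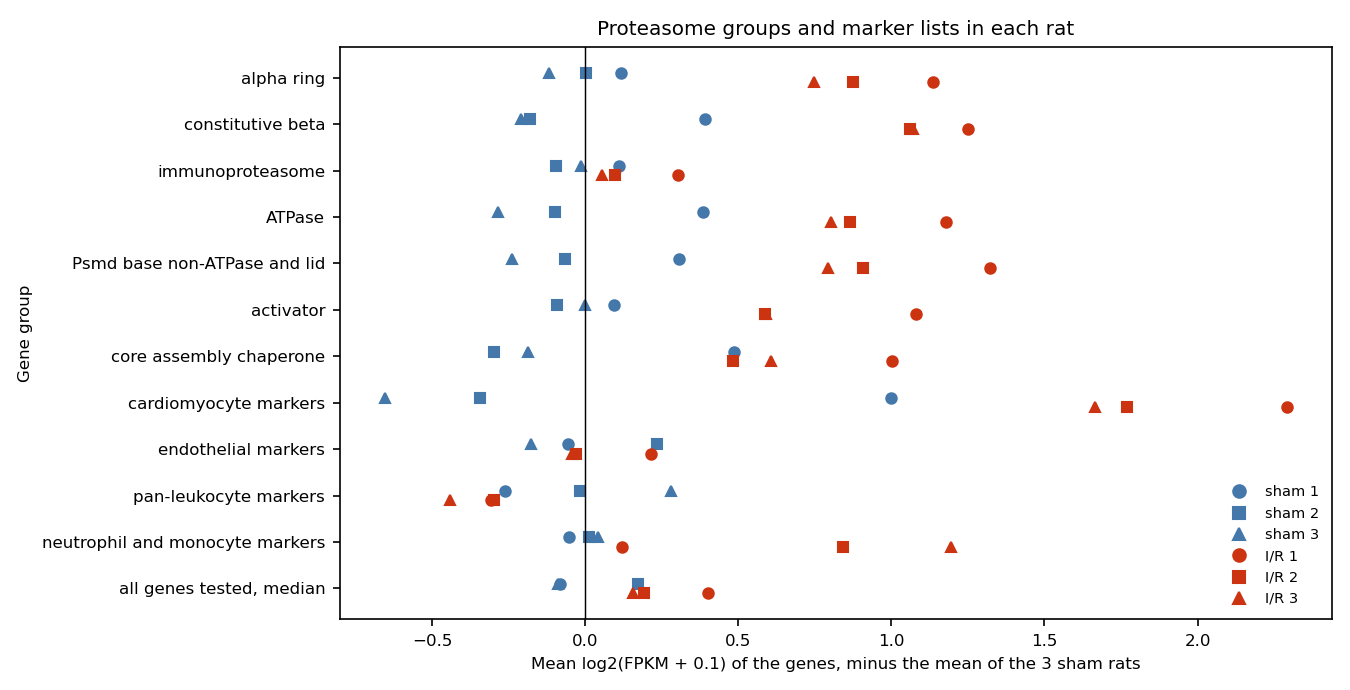
Mean log2(FPKM + 0.1) of each proteasome group and marker list in each rat, minus the mean of the 3 sham rats. Alpha, beta, ATPase and Psmd groups lie 0.75 to 1.32 above the sham mean in I/R rats in FPKM. The immunoproteasome lies at 0.05 to 0.30, and cardiomyocyte markers lie at 1.66 to 2.29. Centred on that list, the proteasome groups are lower in I/R on average, but the core of sham 1 (−3.754) is close to that of I/R 3 (−3.764).

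Marker mRNAs and library makeup differed between the groups. Of 10 cardiomyocyte markers, 9 had a row and 6 were called higher, against 25.5% of all genes (median log2 fold change 1.92). Ttn was also called with the replicate block (limma adjusted p = 0.034). The list was not uniform, with log2 fold changes from 0.42 (Myh7) to 3.79 (Actc1). Myh7 and Ryr2 overlapped between the groups. The mean FPKM of Myh7 was 278.1 in sham, where sham 1 read 667.0, and 232.0 in I/R. The summed FPKM of the 9 cardiomyocyte markers was 3566 to 12040 in sham and 23530 to 34020 in I/R. Sham 1 stood apart, with 12040 against 3999 and 3566 in the other sham rats, and was also the highest sham rat for 37 of the 43 proteasome genes, against 27.9% of all genes. I/R 1 had the highest cardiomyocyte sum and was the highest I/R rat for 39 of the 43, against 58.3% of all genes. Without sham 1 the core median was 1.13. None of 6 endothelial markers was called by limma (at an unadjusted p under 0.05 Kdr was higher and Tek lower, and Kdr was called higher with the replicate block, adjusted p = 0.045), and their sums overlapped, at 121.2 to 172.8 in sham and 138.8 to 175.6 in I/R. Fibroblast markers had 2 of 6 called higher, against 25.5% of all genes (410.7 to 569.0 in sham and 586.2 to 652.9 in I/R).

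Beside the immunoproteasome genes, which leukocytes express strongly, none of 5 pan-leukocyte markers was called (median −0.31, and 1, Ptprc, had an unadjusted p under 0.05), with sums of 28.0 to 38.6 in sham and 27.1 to 29.2 in I/R. Neutrophil and monocyte markers had 2 of 5 tested called higher and 1 lower, against 25.5% and 7.36% of all genes (51.0 to 67.5 in sham and 73.7 to 140.1 in I/R). Lymphocyte markers had 1 of 3 called lower (10.1 to 14.3 in sham and 8.91 to 12.6 in I/R). Neither of 2 red blood cell markers was called. No marker with a row was at 0 in every rat. Mitochondrial mRNAs made up 80.1% to 86.2% of summed FPKM in sham and 61.8% to 71.5% in I/R. Proteasome genes made up 0.599%, 0.581% and 0.578% of the rest in sham and 0.692%, 0.659% and 0.667% in I/R. The part of cell type markers and mitochondrial share in the proteasome differences was not tested.

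The direction of the members depended on what each rat was scaled to. With the 13 mitochondrial mRNAs left out of the scaling, the core median was 0.14 and that of all genes −0.48, 1 member (Psmb6) was called higher and 3 (Psmb8, Psmb9 and Psme4) lower, against 7.06% and 26.9% of all genes. After quantile normalization the core median was 0.19 and that of all genes −0.02. Centred on cardiomyocyte markers, the core median was −0.99 and that of all genes −1.62, with 15 of 43 members called lower, against 60.2% of all genes. TPM gave 1.12 and 0.47, and median centring 0.67 and 0.04. Apart from quantile normalization, these scalings shift all genes of a rat alike, so the gap between the core and all genes is fixed by their construction and is no sign of stability. Relative to the cardiomyocyte markers, the mean of the core genes differed by −0.88 and that of the immunoproteasome genes by −1.76. By rat, the core stood at −3.754, −2.772 and −2.532 from these markers in sham and at −4.114, −3.815 and −3.764 in I/R. Sham 1 was thus close to I/R 2 and I/R 3 on this scale, and the lower core in I/R rests on sham 2 and sham 3.

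**Figure D5:**
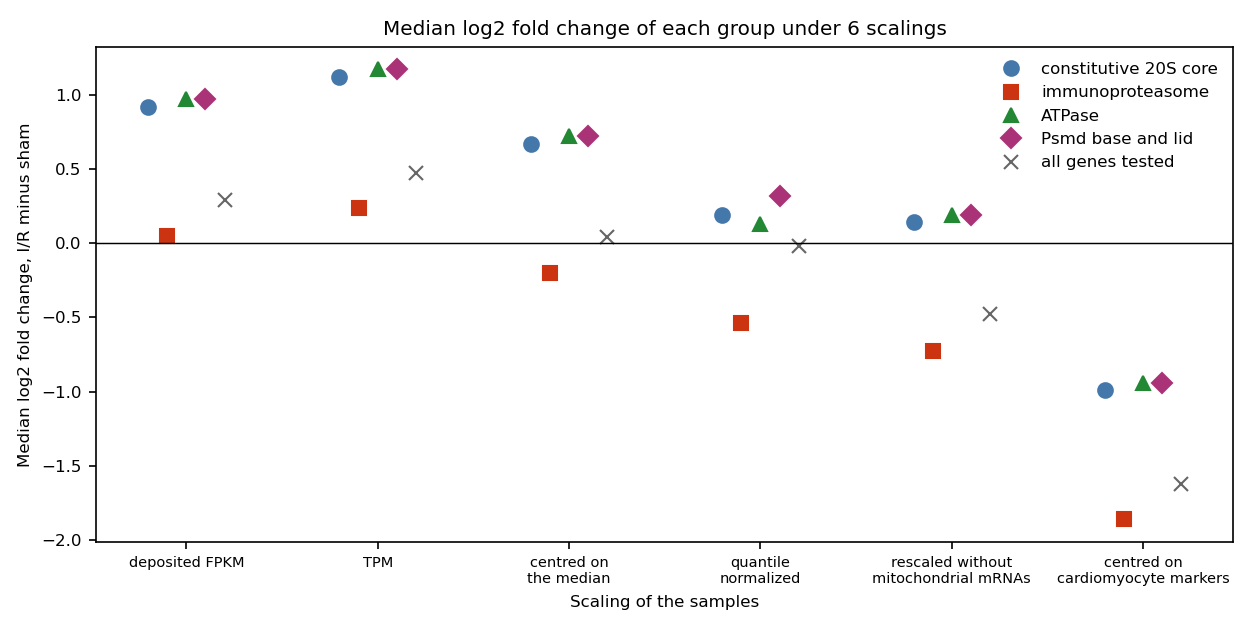
Median log2 fold change (I/R minus sham) of the constitutive core, immunoproteasome, ATPase and Psmd genes and of all genes tested under 6 scalings of the samples. The core goes from 0.92 in deposited FPKM to −0.99 when centred on cardiomyocyte markers, and all genes go from 0.29 to −1.62; scalings other than quantile normalization shift every gene of a rat alike, so the gaps between groups stay by construction.

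Genes that work with the proteasome were read from 4 lists (41 genes tested). In all, 17 were called higher by limma and none lower (none had an unadjusted p under 0.05 in that direction but Nfya), against 25.5% and 7.36% of all genes, with a median of 0.58. The genes named here as higher, apart from Maff, turned negative when centred on cardiomyocyte markers. Among assembly and accessory genes, 6 of 11 were called. Adrm1, a ubiquitin receptor of the regulatory particle, changed most, from 23.0, 12.9 and 10.1 FPKM to 46.2, 36.4 and 38.6 (1.48, adjusted p = 0.0080). Pomp, which matures the core, went from 45.3, 21.2 and 24.0 to 54.0, 52.8 and 53.8 (0.91, adjusted p = 0.041). Zfand2a, a stress-induced proteasome adaptor, changed by 1.21 (adjusted p = 0.0062). Uchl5, a deubiquitinase bound by Adrm1, and Zfand5, an activator, were at 0.08 and 0.09.

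Of 9 regulators tested, 2 were called higher, a share close to the 25.5% of all genes and so no result about the list. Nfe2l1, the transcription factor of the proteasome recovery response, read 11.7, 11.1 and 9.77 FPKM in sham and 31.5, 16.8 and 14.8 in I/R (0.87, SE 0.30, adjusted p = 0.048), with I/R 1 far above the rest. Maff, a small partner of such factors, read 8.56, 6.89 and 5.93 in sham and 28.4, 40.9 and 31.4 in I/R (2.22, adjusted p = 0.0011). Ngly1, the enzyme that processes Nfe2l1, and Nfya, a CCAAT-binding factor, were at −0.42 (adjusted p = 0.19) and −0.64 (adjusted p = 0.088). Nfe2l3 and Mafk were under the filter of a mean FPKM of 0.5.

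Of 12 ubiquitin and delivery genes tested, 7 were called higher, against 25.5% of all genes. The polyubiquitin gene Ubb went from 84.4, 78.3 and 63.6 FPKM to 151.6, 144.1 and 158.1 (1.01, adjusted p = 0.010), with no overlap. Vcp, the unfoldase that extracts tagged proteins, changed by 1.20 (adjusted p = 0.0085). Rps27a, a ubiquitin-ribosome fusion, and Ubqln2, a shuttle, were at 0.15 and 0.22. Uba6 was under the filter.

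Of 9 interferon and antigen processing genes tested, 2 were called higher, also close to the 25.5% of all genes: Ifngr2, a receptor chain for interferon gamma (1.30, adjusted p = 0.0050), and Irf8, a myeloid transcription factor (0.98, adjusted p = 0.010). Nlrc5, which drives class I antigen presentation genes and Psmb9, read 0.725, 0.540 and 0.792 FPKM in sham and 0.638, 0.563 and 0.525 in I/R (−0.21, adjusted p = 0.65), and Erap1, a peptide trimming enzyme, was at −0.04. Named after their values were seen because they neighbour Psmb8 and Psmb9 in function, the peptide transporter genes Tap1 and Tap2 were at 0.29 (adjusted p = 0.34) and 0.35 (adjusted p = 0.26), and B2m at 0.02 (adjusted p = 0.96). Ifng was under the filter, and Tapbp was listed at 0 in every rat. Shfm1 and Paaf1, from the assembly list, had no row under these names. Without sham 3, 9 genes of the 4 lists were called higher, where 14.0% of all genes were.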

How the data were processed

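RNA from the myocardium of 3 sham and 3 I/R rats was sequenced from libraries of a stranded total RNA kit. The authors deposited 1 table of FPKM values (fragments per kilobase, scaled to library total) per gene and sample. STAR and HTSeq are named in the submitters' processing notes without a version, and the genome build, annotation and library total used were not given in the sources used here. FPKM hold no counts, so the depth of each library is unknown and no counting interval is given.

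Rows with the same symbol were summed (7092 rows carried no symbol) and genes averaging 0.5 FPKM or more were kept. limma 3.58.1 in R 4.3.3 was fitted to log2(FPKM + 0.1) with an intensity trend over all 10942 genes, two-sided, with Benjamini-Hochberg adjustment over all of them and a threshold of 0.05. Fold changes are on the log2(FPKM + 0.1) scale, which understates low genes. The fit was checked on simulated data. Nothing says how the rats were sampled beyond their labels, so p-values measure the spread between these samples. Member and related lists, groups and markers were chosen with earlier results of these data known. Named genes were all members, the 2 largest and 2 smallest fold changes of each related list with Nfe2l1, Pomp and Ubb, and the 5 genes most like the core. Some genes of the related lists are counted but not reported here by name. Within-rat ratios used an exact permutation test over samples. The centring on the core was added after the values were seen.

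Alternatives were pseudocounts of 1 and 0.01, no filter or a filter of 5 FPKM, TPM, median centring, quantile normalization, scaling without mitochondrial mRNAs, centring on cardiomyocyte markers, no trend, the highest row per symbol, each rat left out, and the replicate number as a block. Sham and I/R rats of the same label number deviated together from their group means (r = 0.203, 0.117 and 0.118 across genes, each over the limit of 0.1). The number was therefore used as a block in an alternative fit, whereas the main fit and the exact test did not pair the samples. The block called 35 members and 28.2% of all genes higher, against 32 members and 25.5% of all genes without it. The labels state no shared animal, litter or day, and sham 3 deviated with I/R 2 about as closely (0.12), so a pairing by number is not established.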

Additional observations from a re-analysis of the deposited data

How the results depend on the processing

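FPKM hold no depth, 3 rats a group allow no exact p under 0.1, and the scaling, not the pseudocount (32 members higher with each), changed the direction of members. Under pseudocounts, no filter (29), a filter of 5 FPKM (34), TPM (35), no trend (31) or the highest row per symbol (32), the number of members called higher stayed within 1.5 times the 32 of the deposited scale, and none was called lower. Of all genes, 25.4% and 25.5% were called higher with pseudocounts of 1 and 0.01. The share was 11.4%, 50.0%, 30.7%, 24.4% and 25.5% in the other fits, in the same order. In all of these fits 3.32% to 7.38% of all genes were called lower. The replicate block added Psmc5, Psmd4 and Psme2 (35 called) and changed no other call of members. It called 28.2% of all genes higher, against 25.5% without it. Among the related genes the block gave 18 higher against 17.

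Members called higher numbered 18 with median centring, 1 with quantile normalization, 1 without mitochondrial mRNAs and 0 with cardiomyocyte centring, and those called lower 1, 3 and 15 in the last 3 of these. The shares of all genes called higher were 18.5%, 13.2%, 7.06% and 0.375%, and lower 14.2%, 14.2%, 26.9% and 60.2%. Core calls numbered 8, 0, 1 and 0, ATPase calls 2, 0, 0 and 0, base and lid calls 6, 0, 0 and 0, and immunoproteasome genes called lower 1, 2 and 3 in the last 3. Related genes called higher numbered 6, 2 and 0 in the last 3, and called lower 2, 5, 5 and 21 in the same order of 4. The median over all members was 0.63, 0.19, 0.10 and −1.03, the core median 0.67, 0.19, 0.14 and −0.99 (TPM 1.12), and the immunoproteasome median −0.20, −0.54, −0.73 and −1.86 (TPM 0.24). In the last 3 scalings the ATPase median was 0.13, 0.19 and −0.94 and the base and lid median 0.32, 0.19 and −0.94.

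With 1 rat left out, 13 to 35 members were called higher, 5 to 13 core genes, 1 to 5 ATPase genes, 4 to 11 base and lid genes and 9 to 17 related genes. The share of all genes called higher in these fits ran from 14.0% to 23.4%. The core median ran from 0.85 to 1.13 and the ATPase median from 0.79 to 1.26. Members lower relative to the core numbered 3 to 7 of 30, against 5 with all rats, where 46.1% of all genes were called lower. The share of all genes lower on that scale with 1 rat left out is not given here. The cause of these changes was not tested, although a fit without 1 rat also has fewer samples.

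Of 1069 values of single genes under the alternatives, 781 kept direction and side of the threshold, 161 kept only the direction and lost the call, 26 gained a call and 101 changed sign, whether called or not. Median centring turned Psmb9 (−0.20), Psmd5 (−0.21), Uchl5 (−0.16), Zfand5 (−0.16), Rps27a (−0.10) and Ubqln2 (−0.03). Quantile normalization turned Psma4 (−0.03), Psma6 (−0.25), Psma7 (−0.12), Psmb1 (−0.15), Psmb4 (−0.32), Psmb9 (−0.54), Psmb10 (−0.07), Psmc3 (−0.16), Psmd4 (−0.18), Psmd5 (−0.12), Psmd8 (−0.08), Psme2 (−0.23), Psmg3 (−0.19), Uchl5 (−0.15), Zfand5 (−0.65), Rps27a (−0.80), Pomp (−0.03) and Ubb (−0.09). Leaving out mitochondrial mRNAs turned Psma6 (−0.01), Psmb4 (−0.09), Psmb9 (−0.73), Psmb10 (−0.32), Psmc6 (−0.21), Psmd5 (−0.71), Psme2 (−0.14), Psmg2 (−0.24), Psmg3 (−0.50), Uchl5 (−0.67), Zfand5 (−0.69), Rps27a (−0.64) and Ubqln2 (−0.53). TPM turned Psmb8 (0.15), Psme4 (0.00) and Erap1 (0.15). With 1 rat left out, genes near 0 changed sign: Psmb8 (−0.18 to 0.11), Psmb9 (−0.03 to 0.11), Psmd5 (−0.09 to 0.17), Uchl5 (−0.01 to 0.15) and Erap1 (−0.27 to 0.20). Cardiomyocyte centring turned Psma1 (−0.72), Psma2 (−1.05), Psma4 (−0.98), Psma5 (−1.04), Psma6 (−1.14), Psma7 (−1.01), Psmb1 (−1.08), Psmb2 (−0.61), Psmb3 (−0.99), Psmb4 (−1.21), Psmb5 (−0.56), Psmb6 (−0.45), Psmb7 (−0.59), Psmb9 (−1.86), Psmb10 (−1.45), Psmc1 (−0.71), Psmc2 (−0.85), Psmc3 (−1.10), Psmc4 (−0.74), Psmc5 (−1.02), Psmc6 (−1.35), Psmd1 (−0.88), Psmd2 (−0.63), Psmd3 (−0.55), Psmd4 (−1.11), Psmd5 (−1.87), Psmd6 (−0.80), Psmd7 (−1.04), Psmd8 (−1.12), Psmd11 (−1.05), Psmd12 (−0.94), Psmd13 (−1.03), Psmd14 (−0.77), Psme1 (−0.65), Psme2 (−1.27), Psme3 (−0.60), Psmf1 (−1.06), Psmg1 (−1.04), Psmg2 (−1.39), Psmg3 (−1.64), Psmg4 (−0.78), Uchl5 (−1.82), Zfand5 (−1.82), Zfand2a (−0.70), Adrm1 (−0.43), Nfe2l1 (−1.04), Rps27a (−1.76), Ubqln2 (−1.69), Vcp (−0.71), Irf8 (−0.93), Ifngr2 (−0.61), Pomp (−1.0) and Ubb (−0.90).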

Other observations

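Genes whose log2 values followed the core most closely were found over all 10942 genes tested, as the Pearson correlation over the 6 rats with the mean of the 13 core genes. The points share 6 libraries in 2 groups, so any gene that differs between groups correlates, and 169 genes had an r over 0.99. The 5 highest were Hspb1, a small heat shock protein (0.9992), Znrd2 (0.9991), Doc2g (0.9985), Mrps9, a mitochondrial ribosome subunit (0.9984), and Nedd8, the ubiquitin-like protein that activates cullin ligases (0.998). Hspb1 read 96.3, 60.7 and 56.9 FPKM in sham and 393.8, 293.5 and 267.5 in I/R, and Nedd8 read 6.52, 4.87 and 4.84 in sham and 15.7, 12.4 and 12.4 in I/R. On the same measure Psmd3 had an r of 0.99 and Psmb10 of 0.95, whereas Psmb9 had 0.45, Psmb8 0.05, Psmd5 −0.07 and Psme4 −0.35.

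A few further symbols begin like the members but fall outside the naming rule. The row named Psme1-ps1, a pseudogene by its symbol, read 1.07, 2.22 and 0.535 FPKM in sham and 3.42, 5.66 and 2.95 in I/R (log2 fold change 1.72, adjusted p = 0.016 in limma). It is a near copy of Psme1 by name, and how the authors' counting split reads between them was not tested, so the values of both are uncertain to that extent. Psmc3ip, a meiotic recombination factor, changed by 0.95 (adjusted p = 0.024), and Psme3ip1, a protein that binds Psme3, was at 0.51 (adjusted p = 0.14).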
